A study of Mus musculus with 4 samples.

Results

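The tectorial membrane is the extracellular gel that overlies the hair cells of the cochlea and is contacted by the stereocilia of outer hair cells. The 6 genes described here encode its noncollagenous proteins and anchors, were chosen by symbol (Tecta, Tectb, Otog, Otogl, Otoa and Ceacam16), and were all found among the 23420 genes listed. Around birth the membrane is secreted by cells of the cochlear epithelium, mainly supporting cells and cells of the greater epithelial ridge, the tall cells medial to the hair cells. Alpha- and beta-tectorin, from Tecta and Tectb, form the striated sheet matrix in which collagen fibrils lie. The otogelins are large mucin-like proteins, otoancorin attaches the membrane to the spiral limbus, and Ceacam16 is a secreted partner of the tectorins.

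Cochleae of P1 (postnatal day 1) Atoh1-GFP transgenic mice on a CD1 background were cultured overnight and then kept without drug (control) or with 0.5 mM gentamicin, an aminoglycoside antibiotic, for 3 h. All 4 groups carried the transgene, in which an Atoh1 enhancer drives GFP. Cells were then separated by fluorescence into GFP-positive hair cells (HC) and GFP-negative non-hair cells (NHC), and cells with low GFP were gated out. NHC therefore mix supporting cells, cells of the ridges and surrounding tissue. Each of the 4 groups had 3 replicates, which the study calls biological replicates without giving the animals behind each, so p-values measure the spread between these replicates. Between 22399803 and 28151367 reads per replicate were recovered from the deposited normalized read numbers, in which a gene without reads has the value 1.

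The sorts were checked with marker genes. The summed normalized read number of 10 hair cell markers, after taking off the offset of 1, lay between 12064 and 12535 in HC control, 10140 and 11252 in HC gentamicin, 298 and 324 in NHC control and 278 and 325 in NHC gentamicin. All 10 were higher in HC in both comparisons of the populations. The 8 markers of mesenchyme and fibroblasts summed to 5916–7395 in NHC control and 261–560 in HC control, and 6 endothelial markers to 305–351 and 14.5–26.8. The 10 supporting cell markers were not lower in HC: they summed to 2067–2447 in HC control and 1523–2034 in NHC control. These ranges did not overlap. With gentamicin the sums were 1036–1749 in HC and 1224–1768 in NHC, which overlapped. Of these 10, Jag1, Lfng and S100a1 were higher in HC control and Cdkn1b and Slc1a3 lower. The study reports high purity of its sorted hair cells, from re-sorting and from MyosinVI staining. It also bases this on the RNA of hair cell genes such as Atoh1 and Myo7a, which was much higher in HC than in NHC. HC also held transcripts of supporting cell markers, as well as of the membrane genes. The part that other cells in the sort have in the values below was not tested. Fewer cells of a type and less RNA per cell cannot be told apart in these bulk samples.

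Tecta lies on chr9:42329619-42399929 (mm10, minus strand) and was the most read of the 6 genes. In HC control its normalized read numbers were 1275, 1075 and 1428 in replicates 1, 2 and 3, and in NHC control 1413, 1700.3 and 3190.05. In HC gentamicin they were 1072, 578 and 1408, and in NHC gentamicin 1970.8, 1309 and 2886. Replicate 3 was the highest in each group and replicate 2 the lowest in both gentamicin groups, and the ranges of HC and NHC overlapped with and without the drug. Tectb, on chr19:55180733-55196313 (plus strand), followed the same pattern. Its values were 627, 477 and 669 in HC control, 872, 863 and 1725 in NHC control, 492, 271 and 858 in HC gentamicin, and 1253, 743 and 1668 in NHC gentamicin. For Tectb the control ranges of HC and NHC did not overlap.

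Otog, on chr7:46240987-46311434 (plus strand), encodes otogelin. Its values in HC control were 619.6, 684 and 815, and in HC gentamicin 425, 251 and 487, so the HC ranges did not overlap. In NHC control they were 381, 606 and 954 and in NHC gentamicin 485, 303 and 819.7, and all of these ranges overlapped those of the HC group under the same condition. Otogl, on chr10:107760531-107912134 (minus strand), encodes the otogelin-like protein. It stood at 60.3, 56.0 and 68.1 in HC control against 100.4, 139 and 229 in NHC control, and at 50.1, 25.6 and 75.1 in HC gentamicin against 138, 89.0 and 225 in NHC gentamicin. HC and NHC did not overlap for Otogl under either condition. The share of all genes with ranges that do not overlap was not counted for any comparison of groups.

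Otoa, the gene of otoancorin, lies on chr7:121081650-121163097 (plus strand). Its values were 84.3, 92.2 and 122 in HC control and 105, 132 and 174 in NHC control. In HC gentamicin they were 88.3, 55.3 and 77.1, all below the 136, 98.7 and 195 of NHC gentamicin. Ceacam16, on chr7:19852097-19861299 (minus strand), had few reads. It gave 3.5, 1.1 and 1.0 recovered reads in HC control, 3.8, 10.2 and 6.8 in NHC control, 1.2, 0 and 1.1 in HC gentamicin and 6.1, 0 and 9.3 in NHC gentamicin. A count of 0 allows up to 3 reads, which is 0.126 normalized reads in HC gentamicin replicate 2 and 0.111 in NHC gentamicin replicate 2, for counting error only. With 44.1 reads in all it missed the minimum of 100 and was not tested, while the other 5 genes passed it. Predicted or noncoding genes overlap Tecta (Gm47629), Tectb (Mir6715) and Ceacam16 (Gm19345), and whether counting used strand is not given in the sources used here.

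**Figure D1:**
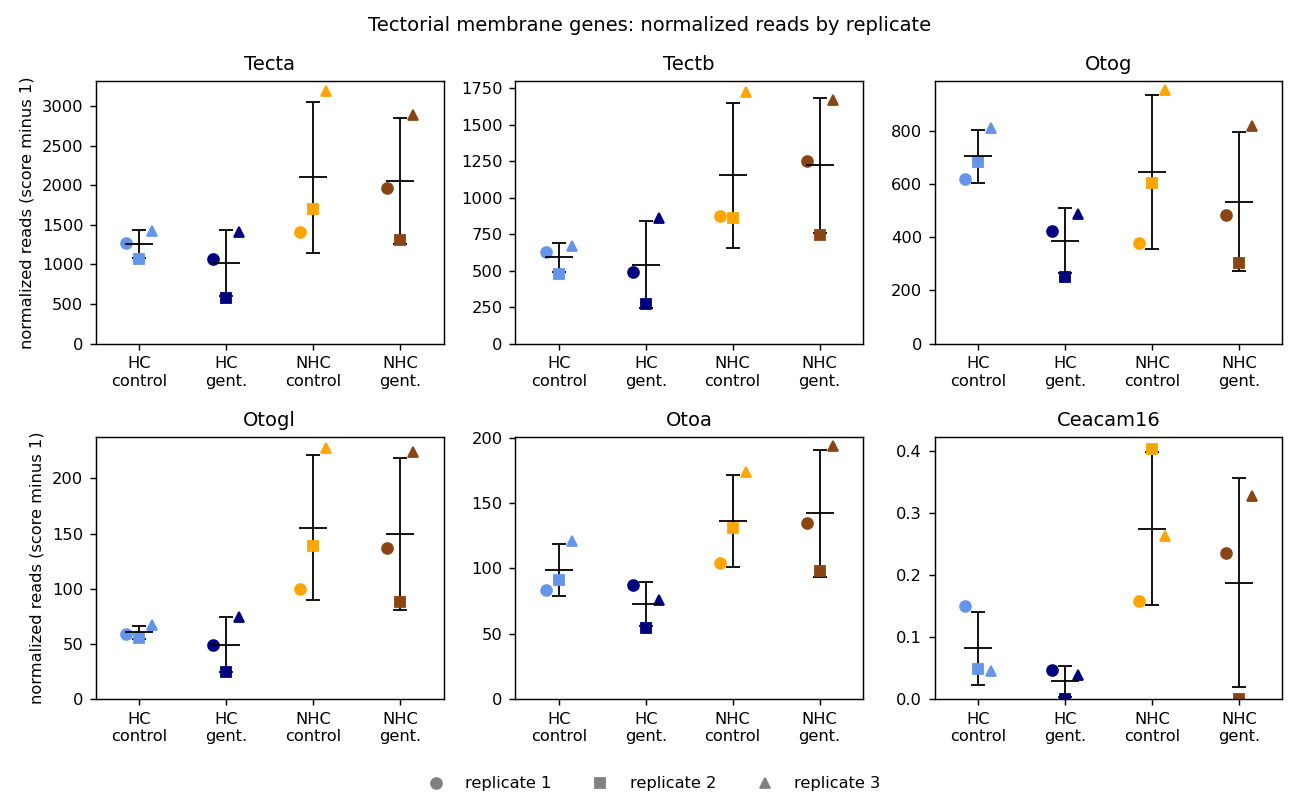
Normalized reads (score minus 1, linear axis, a separate scale in each panel) of the 6 genes in each replicate, with the mean and SD of 3 replicates as black lines. Replicate 2 is the lowest point in HC gentamicin and NHC gentamicin in every panel.

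The first question was how hair cells and their neighbours differed without the drug. Otogl was the only one of the 5 tested genes called, with 39.0% of the NHC level in HC (log2 difference -1.27, SE 0.42, 95% interval -2.18 to -0.35, limma adjusted p = 0.0161). It was lower in HC in 3 of 3 pairs of replicates with the same number. Tectb stood at 51.2% (log2 difference -0.90, SE 0.42, limma adjusted p = 0.0716), Tecta at 59.9% (-0.66, SE 0.39, limma adjusted p = 0.145) and Otoa at 72.3% (-0.45, SE 0.26, limma adjusted p = 0.144), also below NHC in 3 of 3 pairs. Otog stood at 109% of NHC (0.22, SE 0.39, interval -0.64 to 1.07, limma adjusted p = 0.631) and was above NHC in 2 of 3 pairs. Percentages are ratios of group means less the offset. Log2 differences compare means of log2 values with the offset, so the 2 need not match. Differences are called here at a limma adjusted p under 0.05 over the 16077 genes tested. Of all tested genes 74.1% were called in this comparison and 42.2% were called lower in HC, so a count of 1 in 5 is not a result about these genes.

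Replicates of HC control and NHC control with the same number deviated together. With the replicate number as a block 3 genes were called, Tecta (limma adjusted p = 0.0228), Tectb (0.00312) and Otogl (0.00144). In that fit 12023 of the 16077 tested genes were called, 6852 of them lower in HC, so this count is not a result about these genes. The block spanned all 12 replicates, so it also tied the gentamicin groups by number, where the deviations did not show such a pairing throughout. The call of Otogl rested on NHC control replicate 3: without it the log2 difference was -0.95 and limma gave an adjusted p of 0.0708, so that 0 genes were called. Over all alternatives the limma adjusted p ran from 0.00144 to 0.0708 for Otogl, from 0.00312 to 0.258 for Tectb and from 0.0228 to 0.484 for Tecta.

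After gentamicin 4 of the 5 genes were called lower in HC than in NHC. Otogl stood at 32.9% of NHC gentamicin (log2 difference -1.61, SE 0.42, limma adjusted p = 0.00379), Tectb at 44.2% (-1.25, SE 0.42, limma adjusted p = 0.0166), Tecta at 49.6% (-1.03, SE 0.39, limma adjusted p = 0.0288) and Otoa at 51.0% (-0.93, SE 0.26, limma adjusted p = 0.00686). Otog stood at 72.4% and was not called (-0.40, SE 0.39, interval -1.26 to 0.45, limma adjusted p = 0.357). In this comparison 78.1% of all tested genes were called and 43.5% were called lower in HC. The calls of Tecta and Tectb were lost without HC gentamicin replicate 2 (log2 differences -0.67 and -0.83) and without NHC gentamicin replicate 3 (-0.75 and -0.99), and that of Tecta also without NHC gentamicin replicate 1 (-1.02) and with median-of-ratios scaling (limma adjusted p = 0.0524, in a range of 0.00189 to 0.133 over all alternatives).

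**Figure D2:**
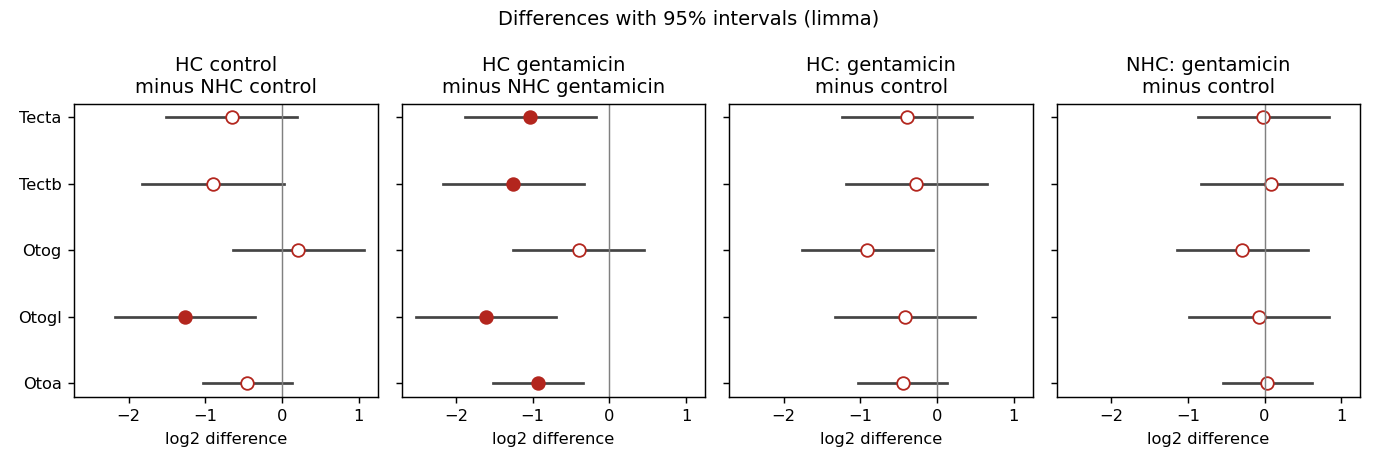
Log2 differences (points) with 95% intervals (lines) from limma for the 5 tested genes in 4 comparisons, with filled points for called differences. Otogl is filled in both comparisons of HC with NHC, Tecta, Tectb and Otoa only after gentamicin, and no point is filled in the comparisons of gentamicin with control.

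The second question was whether 3 h of gentamicin changed these genes within a population. For the drug the calls needed p under 0.01 before adjustment and a fold over 1.2 in either direction, and 0 of the 5 genes were called in HC, where 27.5% of all tested genes were. Otog came nearest, with an unadjusted limma p of 0.0393. It stood at 54.9% of HC control in HC gentamicin (log2 difference -0.91, SE 0.39, interval -1.76 to -0.05, limma adjusted p = 0.0945), with all 3 replicates below all 3 of HC control. Fitted with the 2 HC groups alone it was called, with a limma adjusted p of 0.0181, and over all alternatives the adjusted p ran from 0.0181 to 0.308. The log2 differences of Otoa, Otogl, Tecta and Tectb in HC were -0.45, -0.42, -0.39 and -0.27, with limma adjusted p-values of 0.219, 0.473, 0.473 and 0.661. These values leaned on HC gentamicin replicate 2: without it they were -0.25, 0.00, -0.03 and 0.15, and that of Otog was -0.62.

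In NHC 0 of the 5 genes were called, where 5.44% of all tested genes were. The log2 differences were 0.09 for Tectb, 0.04 for Otoa, -0.01 for Tecta, -0.07 for Otogl and -0.29 for Otog, with intervals of -0.55 to 0.62 for Otoa and, over the other 4 genes, of -1.15 to 1.01. A change of any size within these intervals remained possible. The response to gentamicin was called different between HC and NHC for 0 of the 5 genes in limma's interaction term, against 13.4% of all tested genes. The log2 differences were -0.35 to -0.62, with limma adjusted p-values of 0.417 to 0.731.

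Levels were compared between genes only per kb of merged exon. In HC control Tecta (169.8 ± 23.9 normalized reads per kb, SD, n = 3) and Tectb (154 ± 26.5) came first, followed by Otog (68.1 ± 9.60), Otoa (11.7 ± 2.37), Otogl (6.90 ± 0.70) and Ceacam16 (0.050 ± 0.036). In NHC control Tectb (302 ± 130) and Tecta (283 ± 129) led, then Otog (62.4 ± 27.9), Otogl (17.7 ± 7.51), Otoa (16.2 ± 4.14) and Ceacam16 (0.17 ± 0.08). The order was Tectb, Tecta, Otog, Otoa, Otogl, Ceacam16 in HC gentamicin and as in NHC control in NHC gentamicin. The replicate ranges of Tecta and Tectb overlapped in all 4 groups, and those of Otoa and Otogl overlapped in all but HC control, so that the order of these neighbours was not larger than the spread between replicates where they overlapped. With the longest transcript as the length, Tectb came before Tecta and Otoa before Otogl in all 4 groups, and Otoa then overlapped Otog in both NHC groups.

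Within a replicate, the 2 otogelins stood in a different proportion in the 2 populations. Otog per kb was 8.84–10.5 times Otogl in HC control and 5.55–8.61 times in HC gentamicin, against 3.24–3.70 times in NHC control and 2.91–3.09 times in NHC gentamicin. The HC and NHC ranges did not overlap under either condition. Tecta per kb was 1.05–1.16 times Tectb in HC control and 0.836–1.02 times in NHC control, which did not overlap. It was 0.846–1.12 times in HC gentamicin and 0.811–0.908 times in NHC gentamicin, which overlapped. These proportions were not tested, and the share of other gene pairs with ranges that do not overlap was not counted. Of all tested genes 74.1% were called between HC and NHC without the drug and 78.1% with it. A proportion that differs between the populations is therefore not a result about these genes.

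**Figure D3:**
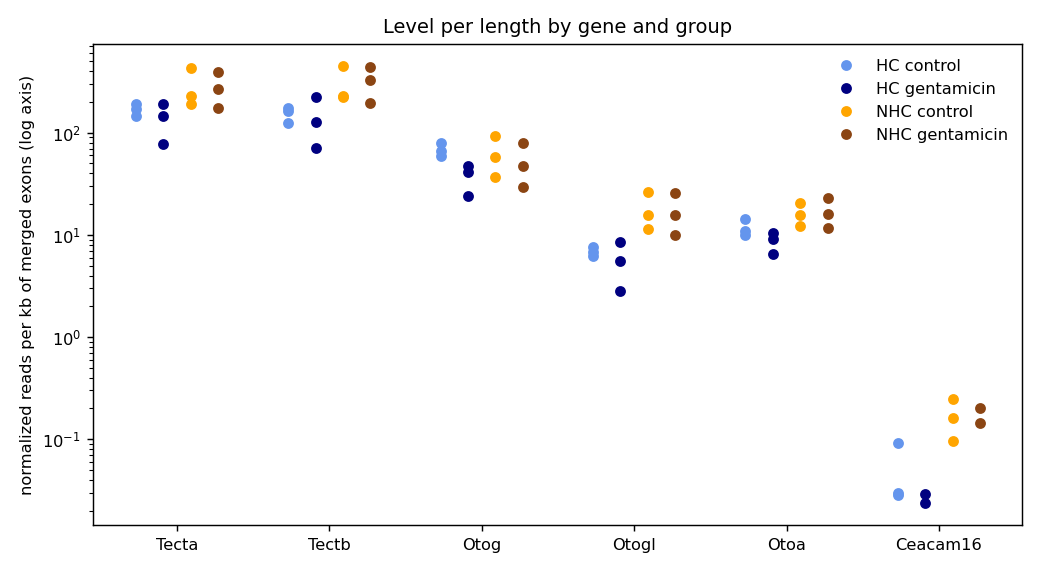
Normalized reads per kb of merged exons (log axis) for each gene, with a point for each of 3 replicates in each of the 4 groups; the 2 replicates of Ceacam16 without reads are not drawn. The tectorins lie highest, Otog next, Otogl and Otoa lower, and Ceacam16 below 0.3 in every replicate.

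Within a group the replicates differed widely. The summed normalized reads of the 6 genes were 2662, 2378 and 3098 in HC control, 2123, 1176 and 2901 in HC gentamicin, 2866, 3437 and 6268 in NHC control and 3978, 2538 and 5789 in NHC gentamicin. In all 4 groups the replicates took the same order for the sum of the 10 supporting cell markers, which was lowest in HC gentamicin replicate 2 at 1036 and, among NHC gentamicin replicates, in replicate 2 at 1224. In both NHC groups the replicates took the reverse order for the 8 mesenchyme and fibroblast markers. Their sums were 7395, 7391 and 5916 in NHC control and 8059, 9990.3 and 6612 in NHC gentamicin. Replicates 1 and 2 of NHC control were nearly equal there, and neither HC group took the reverse order. In the supporting cell sum they were also close, at 1523 and 1541. The greater epithelial ridge markers took the order of the 6 genes in both NHC groups but in neither HC group. Those sums were 690.0, 696 and 752 in HC control and 650, 687 and 720 in HC gentamicin. Glia and neuron markers took it in both gentamicin groups but in neither control group. The part of the cell mixture in the values of the membrane genes was not tested. With replicate 2 left out of both gentamicin groups, a choice made after seeing the data, the same count of 4 genes was called lower in HC gentamicin than in NHC gentamicin. In that fit 11765 of the 16077 tested genes were called, 6671 of them lower in HC.

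**Figure D4:**
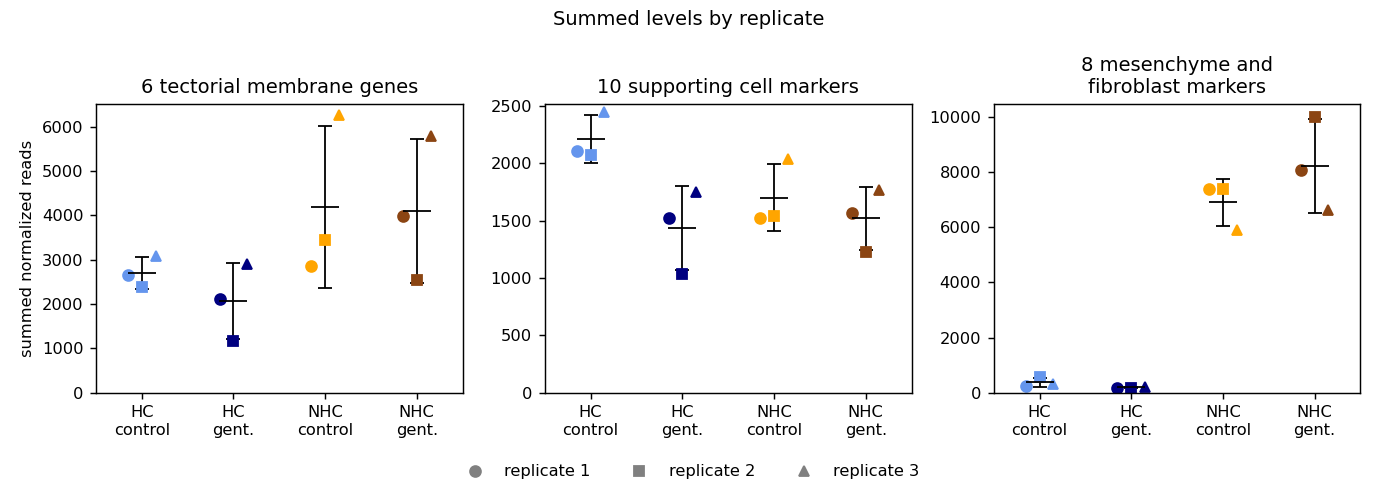
Summed normalized reads (linear axes from 0) of the 6 tectorial membrane genes, 10 supporting cell markers and 8 mesenchyme and fibroblast markers in each replicate, with mean and SD of 3 replicates as black lines. Within each group the replicates fall in the same order in the first and second panels, and in NHC in the reverse order in the third.

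The other marker lists moved as follows. The 6 greater epithelial ridge markers summed to 690.0–752 in HC control and 797–1394 in NHC control, and 3 were lower and 1 higher in HC. Glia and neuron markers summed to 499–601 and 619.9–1057, macrophage markers to 3.36–4.39 and 24.6–44.6 and melanocyte markers to 12.7–15.8 and 30.7–37.1. After gentamicin the supporting cell markers in HC were 65.0% of control, with Gjb2, Hes5 and Lfng called lower, and the membrane genes together were 76.2% of control. The greater epithelial ridge markers in HC were 96.2% of control in sum, with Epyc and Crabp1 called lower (log2 differences -0.89 and -0.95). Their median log2 difference was -0.50, beside -0.71 for the supporting cell markers and -0.09 for all tested genes. Glia and neuron markers were at 71.4% (2 of 6 called lower), endothelial markers at 52.0% (1 of 6) and melanocyte markers at 84.3% (1 of 4). Macrophage markers were at 124% and hair cell markers at 86.8%, with 0 called in either list. Of all tested genes 27.5% were called in this comparison, in either direction.

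Across the 12 replicates Tecta and Tectb had a Pearson r of 0.979 on the log2 scale. Tecta was also close to Gna14 (r = 0.984), a G protein alpha subunit gene, and to Fam107a (0.976), and Tectb to Gna14 (0.980) and Otogl (0.972). Otogl was closest to Gas2 (0.984), Ptpre (0.983) and Mpzl2 (0.983), and Otoa to Shroom1 (0.978), Cpxm2 (0.977) and Tmprss5 (0.975). Otog stood apart, closest to Vill (0.965), Samd10 (0.961) and Zdhhc2 (0.960), and had an r of 0.717 with Tecta and 0.591 with Otogl. These correlations are descriptions over replicates of 4 groups that share libraries and cell mixtures.

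Promoter windows were in the RefSeq table for 4 of the 6 genes. The windows of Tecta and Tectb are shown because these genes moved together over the replicates, and that of Otog because it did not follow them. Each is the 250 bases before a RefSeq start (GRCm38.p6, the build mm10), 5′ to 3′ on the strand of the gene, with every CANNTG (the E-box core, read alike on both strands) in capitals. Tecta lies at chr9:42399948-42400197 (minus strand), Tectb at chr19:55180476-55180725 (plus strand) and Otog at chr7:46240737-46240986 (plus strand).
Tecta: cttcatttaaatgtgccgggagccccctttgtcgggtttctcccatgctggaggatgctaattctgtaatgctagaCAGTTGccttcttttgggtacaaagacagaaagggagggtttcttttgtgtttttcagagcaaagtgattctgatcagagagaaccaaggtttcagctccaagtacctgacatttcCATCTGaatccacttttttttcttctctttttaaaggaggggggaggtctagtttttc
Tectb: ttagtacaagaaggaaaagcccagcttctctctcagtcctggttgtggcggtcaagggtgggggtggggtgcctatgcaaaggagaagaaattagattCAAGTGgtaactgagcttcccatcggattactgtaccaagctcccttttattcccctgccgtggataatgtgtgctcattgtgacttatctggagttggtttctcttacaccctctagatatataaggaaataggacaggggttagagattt
Otog: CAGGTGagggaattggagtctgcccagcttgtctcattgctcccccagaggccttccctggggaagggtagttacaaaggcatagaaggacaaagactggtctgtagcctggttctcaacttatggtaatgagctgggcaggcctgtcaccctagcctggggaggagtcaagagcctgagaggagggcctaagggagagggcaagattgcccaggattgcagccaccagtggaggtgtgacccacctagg
The table holds another Tecta window, chr9:42401691-42401940, before a RefSeq start farther from the GENCODE start of the gene, with 2 CANNTG matches, and it is not shown. The CANNTG core, chosen after the windows were read, occurred 2 times in Tecta, 1 time in Tectb and 1 time in Otog, and is present in 66.2% of the 32851 windows of this length in the table. Another 4 motifs were searched on both strands and had 0 matches in these windows, nor in the other window of Tecta and that of Otoa. Of these, TATAAA occurs in 12.4% of all windows. The motif CAGCTG, which is 1 form of CANNTG, occurs in 13.0%. The half-site AGGTCA occurs in 14% and TGANTCA in 6.75%. A match is a string of letters, and its absence says only that these letters are not in this window.

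All 6 collagens of the fibrils of the membrane (Col2a1, Col9a1, Col9a2, Col9a3, Col11a1 and Col11a2) were called lower in HC than in NHC with and without the drug. Of all tested genes 42.2% were called lower in HC without the drug and 43.5% with it. The median log2 difference of the collagens was -1.87 in controls, beside -0.66 for the 5 tested membrane genes and -0.12 for all tested genes. These collagens are also made by cartilage and mesenchyme. In HC gentamicin 2 of the 6 were called lower than in HC control, where 27.5% of all tested genes were called in either direction. Col2a1, the chain of type II collagen, had normalized read numbers of 2489.6, 3006 and 2896 in HC control and 1696, 1026 and 1703 in HC gentamicin (log2 difference -0.96, SE 0.26, limma adjusted p = 0.0153). Col9a1 had 124, 178 and 165 in HC control and 105, 67.7 and 121 in HC gentamicin (-0.70, SE 0.20, limma adjusted p = 0.0208). The mesenchyme and fibroblast markers moved beside them, to 52.1% of control in HC gentamicin with 4 of 8 called lower, and their part in the result was not tested. In NHC 0 of the 6 collagens were called with gentamicin.

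On the hair bundle side, Strc and Pkhd1l1 were called higher in HC in both comparisons, and Tub was not called in any. Strc, the gene of stereocilin, which links outer hair cell stereocilia to the membrane, had values of 1174, 1273 and 1193 in HC control and 1.16, 1.08 and 1.23 in NHC control. Pkhd1l1, a stereocilia coat gene, had 1463, 1564 and 1547 in HC control and 886, 1059 and 797 in HC gentamicin, which was not called (log2 difference -0.75, SE 0.25, limma adjusted p = 0.0371).

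Of the 4 genes of the otoconial and cupular matrix, which belongs to the vestibular organs, Oc90 was called lower in HC in both comparisons and Otol1 higher. Zpld1 was called higher in HC in the control comparison (means of 9.11 and 4.68). Otop1 was also above NHC after gentamicin, as given below without a test. With gentamicin Oc90 was called lower in HC (57.4, 109 and 64.3 in control, 21.2, 35.9 and 32.8 with the drug, log2 difference -1.33, SE 0.43, limma adjusted p = 0.0337). Otop1, an otopetrin proton channel gene, stood in HC at 1.22, 1.21 and 1 in control and 3.19, 3.55 and 1.68 with the drug. It reached the minimum of 100 reads only through HC gentamicin, with 133 reads there and 43 in the other 3 groups together, so its tests are no support for a difference. Zpld1, the gene of cupulin, was the gene called with gentamicin in NHC, at 3.93, 5.36 and 4.75 in control and 6.72, 12.5 and 6.31 with it (0.80, SE 0.23, limma adjusted p = 0.124, called on its unadjusted p).

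Thyroid hormone is known to be needed for the tectorial membrane to mature. Of the genes of its receptors and deiodinases, Thrb was called higher in HC in both comparisons and Thra and Dio2 lower, and Dio3 had too few reads to be tested. With gentamicin Thra, a receptor, was called lower in HC, at 83.2, 92.4 and 75.4 in control and 55.2, 49.9 and 53.8 with the drug (log2 difference -0.66, SE 0.12, limma adjusted p = 0.00218). Thrb, the other receptor, and Dio2, a deiodinase that activates the hormone, were not called, with log2 differences of 0.04 and -0.23. In NHC none of Thra, Thrb and Dio2 was called with gentamicin.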

How the data were processed

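Per the labels and the methods of the study, RNA of sorted cells was made into Illumina TruSeq mRNA libraries and sequenced as 50 bp single-end reads, and the authors trimmed the reads, aligned them to mm10 with TopHat2 (also in the submitters' processing notes) and deposited a normalized read score per gene and replicate. The methods call this score RPKM. The deposited score behaved as reads scaled per replicate plus 1, not divided by gene length: after subtracting 1, 75.9–76.9% of low values (up to 20 reads) were whole multiples of the replicate's step (tolerance 0.02). As this is not nearly all values, no count model was used. The scaling factor is not given in the sources used here.

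Log2 scores of the 16077 genes with at least 100 recovered reads over 12 replicates entered limma 3.58.1 (R 4.3.3), in a single model of the 4 groups with a mean-variance trend. Adjusted p-values are Benjamini-Hochberg values over these genes, and tests are two-sided. Fold changes are on the log2(score) scale with its offset of 1 and understate changes of low genes. The fitting procedure was tested on simulated data. Tables were handled with pandas 2.3.3 and numpy 2.4.6. Positions and lengths came from GENCODE M21 and promoters from RefSeq (GRCm38.p6).

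Replicate numbers came from the column headers. Deviations from the group means of same-numbered replicates had correlations of 0.216, 0.316 and 0.200 between HC control and NHC control, all over 0.1, so the numbers were taken to pair these groups.

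Members, lists and tests were chosen with earlier results of these data known. All 6 members were named, pathway genes were named where called with gentamicin (the highest, Pkhd1l1, for the list with none), and the 3 genes closest to each of the 5 tested members by correlation were named. Some genes of these lists were also named without such a call: Otol1, Thrb, Dio2, Dio3 and the remaining collagens. Strc and Tub were named after their values were seen. Alternatives were another scaling, offset (0.1), minimum of reads, threshold, voom weights, the 2 compared groups alone, a replicate block, the longest transcript, and each replicate left out. Both gentamicin replicates 2 were left out as a choice made after seeing the data. A listed gene is not reported here.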

Additional observations from a re-analysis of the deposited data

Results flagged for a closer look

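For Otop1 the interaction term of limma gave a log2 difference between the responses of HC and NHC of 1.36 (SE 0.32). The gene passed the minimum of 100 reads only through HC gentamicin, which held 133 reads against 43 in the other 3 groups together, so it was selected by the group in which it is high and the value is given as a description. The normalized read numbers in NHC were 1.33, 1.24 and 1.23 in control and 1.12, 1.07 and 1.28 with the drug, close to the value of 1 of a gene without reads.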

How the results depend on the processing

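Of the counts of called membrane genes, those in the comparison of the control populations moved from 1 to 2 with the 2 groups alone, to 0 when p under 0.01 before adjustment and a fold over 1.2 were required, to 3 with the replicate block, and to 0–1 with each replicate left out. In the treated populations the count moved from 4 to 2 under that other threshold and to 2–4 with each replicate left out, and in gentamicin-treated against control HC from 0 to 1 (Otog) with the 2 groups alone and with the replicate block (limma adjusted p = 0.0276). For other pairs of groups, the sources used here do not say whether replicates with the same number share an origin. Between HC gentamicin and NHC gentamicin their deviations had correlations of 0.377, -0.039 and -0.018 in replicates 1, 2 and 3. The block changed no other call. Of the 16077 tested genes, those called between the control populations numbered 12015 with the 2 groups alone and 10581 under the other threshold. They numbered 12023 with the block and 11132–11514 with each replicate left out. Between the treated populations they numbered 11316 under the other threshold and 11874–12328 with each replicate left out. With gentamicin in HC they numbered 5061 with the 2 groups alone and 4618 with the block. With the longest transcript, 4 of 6 genes kept their rank per kb in HC control, NHC control and NHC gentamicin. Scaling by median-of-ratios moved the median of all tested genes by 0.11 on the log2 scale in both comparisons of the populations. Over all tested genes, those whose response differed between HC and NHC numbered 2158, and 918 with both gentamicin replicates 2 left out, while those called with gentamicin in NHC numbered 875, 383 with the 2 groups alone and 55 at an adjusted p under 0.05.

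Directions turned for differences that were not called. Scaled to equal totals, Tecta in NHC with gentamicin was at 0.0096. With each replicate left out, Otog ran from -0.12 to 0.55 between the control populations. With gentamicin in HC, Tectb ran from -0.68 to 0.15 and Otogl from -0.77 to 0.0015. With gentamicin in NHC, Tecta ran from -0.30 to 0.33, Tectb from -0.18 to 0.42, Otog from -0.66 to 0.061, Otogl from -0.41 to 0.26 and Otoa from -0.21 to 0.28. The difference of the responses ran from -0.77 to 0.066 for Tectb and from -0.70 to 0.071 for Otogl. The cause was not tested. At 44.1 reads in all, the depth did not allow a comparison of Ceacam16.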
